A study of Mus musculus with 2 samples.

Results

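Notch signalling genes were followed through 3 sorted populations of the mouse small intestinal epithelium. The set has 10 genes chosen by name, namely the receptor gene Notch1, the ligand genes Dll1, Dll4 and Jag1, the target genes Hes1 and Nrarp, and the modifier genes Dtx1, Dtx4, Lfng and Adam17. Of these, 9 had a probe under their symbol in the array annotation, 1 probe each, out of 16390 genes named on the array. All 9 exceeded the background limit in every channel. Nrarp was not analysed here, because no probe carried its symbol or its older name.

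All populations came from mice that carried Atoh1-crePGR together with Lgr5-EGFP-IRES-creERT2 and Rosa26-tdTomato, of an age not stated in the labels. RU486 on 5 consecutive days activated the Cre driven by Atoh1, a transcription factor gene of secretory commitment, which left tdTomato in cells with Atoh1-Cre activity and in their progeny. Cells of 4 mice were pooled and sorted 20 days after recombination into EGFP+ve/tdTomato-ve cells (called EGFP only), EGFP+ve/tdTomato+ve cells (double positive) and EGFP-ve/tdTomato+ve cells (tdTomato only). EGFP reports Lgr5, the marker gene of crypt base stem cells. EGFP-only RNA carried Cy5 on each of 2 two-colour arrays, set against double-positive RNA in Cy3 on the first and tdTomato-only RNA in Cy3 on the second. Each comparison thus rests on 1 array with no dye swap, so no ratio has a replicate error or a test. Genes are counted by a size of at least 2-fold (a log2 ratio of 1). With EGFP-only RNA always in Cy5, dye and population cannot be told apart in a ratio over EGFP-only cells.

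In Notch signalling, a ligand on one cell binds a receptor on its neighbour. Cleavage by an ADAM protease and then by gamma-secretase frees the receptor's intracellular domain, which joins the DNA-binding protein RBPJ and switches on targets such as Hes1. In the crypt this signal keeps stem and absorptive progenitor cells from becoming secretory. HES1 represses Atoh1, while cells that express Atoh1 produce delta ligands and signal to their neighbours.

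The 250 bases before the start of 3 genes are shown, chosen because they hold letters that the DNA-binding proteins of this circuit are known to recognise. They come from RefSeq (GRCm38.p6), read 5′ to 3′ on the gene's strand. The promoter table matched 8 of the 10 genes and lacked Hes1 and Dtx4. For Lfng (chr5:140607091-140607340, plus strand) the capitals mark the RBPJ core TGGGAA or its reverse complement TTCCCA, and for Dll1 (chr17:15376933-15377182, minus strand) and Adam17 (chr12:21373633-21373882, minus strand) they mark the E-box CANNTG, the letters bound by ATOH1 and related factors.
Lfng: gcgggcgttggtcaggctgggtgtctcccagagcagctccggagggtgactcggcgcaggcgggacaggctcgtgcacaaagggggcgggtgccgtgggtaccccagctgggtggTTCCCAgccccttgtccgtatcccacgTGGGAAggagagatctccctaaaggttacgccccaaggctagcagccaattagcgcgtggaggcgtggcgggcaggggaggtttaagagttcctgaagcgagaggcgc
Dll1: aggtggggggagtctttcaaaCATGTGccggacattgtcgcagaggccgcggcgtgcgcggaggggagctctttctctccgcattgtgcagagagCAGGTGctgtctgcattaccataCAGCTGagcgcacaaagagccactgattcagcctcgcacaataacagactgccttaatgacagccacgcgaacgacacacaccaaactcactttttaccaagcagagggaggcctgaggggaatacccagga
Adam17: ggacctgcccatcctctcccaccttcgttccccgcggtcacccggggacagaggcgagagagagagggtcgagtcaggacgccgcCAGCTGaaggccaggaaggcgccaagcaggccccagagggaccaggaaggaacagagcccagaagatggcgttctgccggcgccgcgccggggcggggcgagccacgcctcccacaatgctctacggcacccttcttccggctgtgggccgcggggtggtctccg
Of the 8 genes searched, Lfng alone held an RBPJ core in this window, with a copy on each strand at 135 to 130 and 108 to 103 bases before the start. Among 32851 promoters in the table, 21.6% held at least 1 core on either strand and 2.77% at least 2. Dll1 held 3 E-boxes upstream of its outermost start, a number reached by 12.2% of all promoters. Adam17 held 1. Of the 9 promoters of the set, 6 held at least 1 E-box (66.7%), close to the 66.2% of all promoters, and those of Notch1, Dll4 and Dtx1 held none. The second core of Lfng overlaps an E-box that is not marked. These matches describe letters, not binding.

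The arrays were read on a scale of normalized log2 intensity (the level), and a log2 ratio is the difference of both levels on 1 array. The level of 1 gene is not set against that of another gene, since probes differ in brightness. Over 15640 probes, the EGFP-only channel of the second array differed from that of the first with an SD of 0.083, and 95% of probes differed by no more than 0.15. This is the spread of 1 population in 1 dye, so it holds no dye effect and no spread between samples, and it is not a yardstick for a difference between populations. A spot counted as above background over an intensity of 74.1 for EGFP-only and 82.2 for double-positive cells on the first array, and over 75.7 for EGFP-only and 85.4 for tdTomato-only cells on the second. Of all genes past 2-fold, 93.8% were higher in the double-positive comparison (33.0% with median centring alone, 83.7% after quantile normalization, 74.5% with the blank mean subtracted and 77.7% in the authors’ deposited ratios). In the tdTomato-only comparison 83.8% were higher (32.4%, 70.1%, 67.4% and 64.9% in the same order). Between tdTomato-only and double-positive cells 74.8% were higher in the former (55.8% with the blank mean subtracted and 50.1% in the authors’ deposited ratios). Median centring alone moved the median of all genes to −0.21 in both comparisons with EGFP-only cells, so there a ratio under that setting is read against −0.21.

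Notch1, which encodes the receptor, was lower in tdTomato-only cells. Its spot medians were 432 in EGFP-only and 282 in double-positive cells on the first array, and 405 and 173 in EGFP-only and tdTomato-only cells on the second. The levels were 8.46 and 8.26, then 8.42 and 7.40, so the EGFP-only readings lay close together and the tdTomato-only reading lay well below every other. The log2 ratio was −1.02 in tdTomato-only cells, 2.03-fold lower than in EGFP-only cells, and only 1.04% of 11381 genes had a lower ratio. In double-positive cells it was −0.20, 1.15-fold lower. No order of EGFP-only and double-positive cells is given for a ratio of that size without replicates. Notch1 lay below 0 in both comparisons under all 7 ways of processing that bear on a single-probe gene, from −0.64 to −0.20 in double-positive and from −1.53 to −0.95 in tdTomato-only cells. Lgr5, the check of the sort, had log2 ratios of 0.26 in double-positive cells (−0.26 with median centring alone) and −0.89 in tdTomato-only cells. In bulk RNA, fewer cells of a type and less RNA per cell cannot be told apart.

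The delta ligand gene Dll4 went the other way. It encodes a membrane ligand that acts with Dll1 in the crypt. It had spot medians of 134 in EGFP-only and 169 in double-positive cells, and of 134 and 203 in EGFP-only and tdTomato-only cells on the second array. Its EGFP-only levels were 6.76 on each array, against 7.36 in double-positive and 7.61 in tdTomato-only cells, so both Cy3 populations stood above both EGFP-only readings. The log2 ratios were 0.60 (1.51-fold higher) and 0.85 (1.80-fold higher), higher than those of 89.6% and 92.3% of genes. Dll4 was above 0 in both comparisons under all 7 ways. The tdTomato-only value was past 2-fold in the authors’ deposited ratios (0.96 in double-positive and 1.23 in tdTomato-only cells), as were both values with the blank mean subtracted (1.01 and 1.35).

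Dll1 encodes the other delta ligand of the crypt. Its spot medians were 198 and 192 on the first array and 193 and 208 on the second, EGFP only first in each pair. The levels were 7.35 in EGFP-only and 7.60 in double-positive cells, and 7.32 and 7.68 on the second array. The log2 ratios were 0.25 (1.19-fold) and 0.36 (1.29-fold), and median centring alone put them at −0.08 and 0.04, above the median gene of that setting. No order of the 3 populations is given for ratios of this size without replicates.

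Jag1 encodes a ligand of the jagged type and was barely above background. Spots read 80.8 in EGFP-only and 90.0 in double-positive cells, and 80.3 and 87.4 on the second array, each a little over the limit of its channel. The log2 ratios were 0.01 and −0.11. The first turned to −0.01 after quantile normalization and was 0.45 in the authors’ deposited ratios, so no order of the 3 populations is given.

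**Figure D1:**
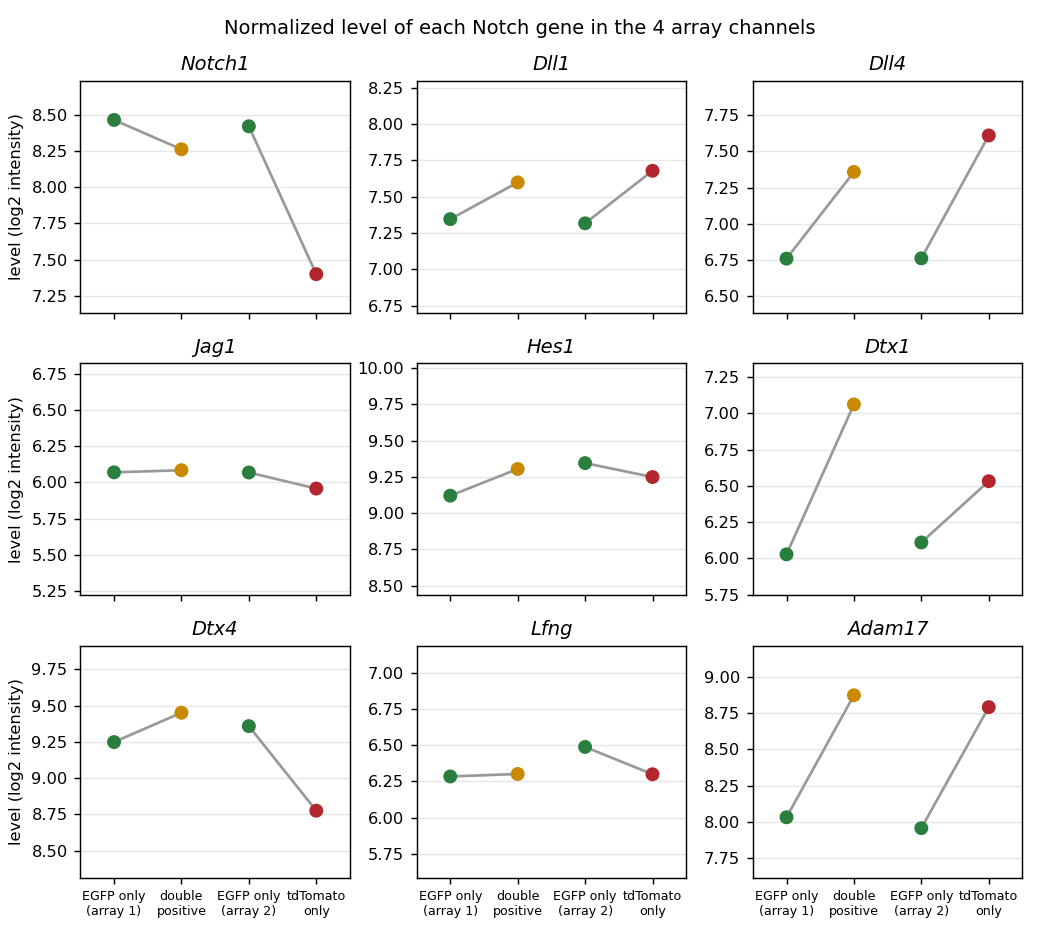
Normalized level (log2 intensity, y axis, 1.6 units tall in every panel) of the 9 measured Notch genes in the 4 channels of the 2 arrays (x axis); a grey line joins the channels of 1 array and there are no replicates. Notch1 is lowest in tdTomato-only cells at 7.40, Dll4 and Adam17 are higher in both Cy3 populations, and the EGFP-only points of Hes1 lie 0.22 apart.

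Markers of cell types that also carry Notch genes were read beside these values. Of 10 endothelial genes, a cell type that uses Notch1, Dll4 and Jag1, 6 were not above background in any channel (Pecam1, Cdh5, Tek, Tie1, Emcn and Cldn5). The 10 genes summed to 711 in EGFP-only and 687 in double-positive cells, and to 716 and 687 on the second array. Genes at background still add to such a sum, so near-equal totals say little about endothelial RNA. Of the 3 measured in both channels, Kdr, the endothelial receptor gene for VEGF, had ratios of 0.43 and 0.44, Plvap −0.07 and −0.11, and Egfl7 −0.50 and −0.58. Vwf, the gene of von Willebrand factor, was above background in the Cy3 channel alone on each array, with 1.1 and 1.07 in the authors’ deposited ratios. Kdr and Vwf thus lay on the same side as Dll4, whereas Plvap and Egfl7 lay below 0 in both comparisons. Markers of differentiated cells differed more. The 9 measured goblet genes of 10 listed summed to 32973.5 and 216121 on the first array and to 27644.5 and 346197 on the second, EGFP only first. Of these, 8 had ratios above 0 in double-positive cells. The exception was the mucin gene Muc2, with −0.40 there and 0.16 in tdTomato-only cells. Of 10 Paneth genes, 7 were measured and summed to 23628 and 437051, then 24592 and 370364, with saturated spots among them. The 10 stem cell genes summed to 28454 and 14778, then 29896 and 8493, though 2 of the 10 were above 0 in double-positive cells (Lgr5 at 0.26 and Sox9 at 0.13). Enteroendocrine genes also summed lower than in EGFP-only cells, with 10 genes at 6479 and 3009, then 6629 and 5390, and 9 of 10 ratios below 0 in both comparisons. The 7 measured enterocyte genes summed to 8465 and 35460, then 9069 and 66495. The part of these cell type differences in the Notch gene ratios was not tested.

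The target gene Hes1, a transcriptional repressor, differed little between populations. Hes1 spots read 690 in EGFP-only and 540 in double-positive cells on the first array, and 788 and 538 on the second. The levels were 9.12 and 9.30, then 9.34 and 9.25, and the EGFP-only readings were themselves 0.22 apart. The log2 ratios were 0.18 and −0.10. With median centring alone the ratios were −0.33 and −0.58, both below the −0.21 of the median gene. The tdTomato-only ratio lay below 0 under every way of processing, from −0.58 to −0.07. Set against double-positive cells it was also below 0 throughout, from −0.4 to −0.25. The double-positive ratio ran from −0.33 to 0.23. No order of the 3 populations is given for ratios of this size without replicates.

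Dtx1 had the highest log2 ratio of the set in double-positive cells. It encodes deltex 1, a RING-finger protein that binds the intracellular part of Notch receptors. Its spot medians were 82.6 in EGFP-only and 147 in double-positive cells, and 84.7 and 116 on the second array. Less the blank mean, these were 14.2 in EGFP-only cells of the first array, 68.8 in double-positive and 37.2 in tdTomato-only cells, so the EGFP-only readings were near the limit. The order of levels was double positive (7.06), tdTomato only (6.53) and EGFP only (6.03 and 6.11). The log2 ratios were 1.03 (2.05-fold higher) and 0.42 (1.34-fold higher). How far Dtx1 differed hung on the background step, and it was under 2-fold with median centring alone (0.89) and after quantile normalization (0.96). The double-positive ratio was 0.86 with no background correction, 1.84 with an offset of 10, 2.67 with the blank mean subtracted and 2.74 in the authors’ deposited ratios. The tdTomato-only ratio was 0.34, 0.84, 1.30 and 1.5 in the same order, and the double-positive value was the higher in each.

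Lymphocyte genes had the same order of populations as Dtx1, but so did the sums of the Paneth genes and of myeloid or mast cell genes. All 8 genes measured on both arrays, of 10 listed for T cells or intraepithelial lymphocytes, were above 0 in both comparisons, with a median log2 ratio of 2.76 in double-positive and 1.54 in tdTomato-only cells. The 9 listed genes with a probe, Cd3e among them, had a summed intensity of 1689 and 16452 on the first array and 1702 and 6979 on the second, EGFP only first. Cd3e, which encodes a T cell receptor complex protein, was not above background in any channel, whereas Cd3g of the same complex had ratios of 2.70 and 1.46. The 9 myeloid or mast cell genes with a probe summed to 812 and 2191, then 812 and 1768, EGFP only first. Of 6 of them measured on both arrays, 4 were lower in tdTomato-only than in double-positive cells and 2 were higher. Deltex 1 is known from T and B cells as well. The part of lymphocyte, Paneth or myeloid RNA in the Dtx1 ratios was not tested.

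Dtx4 encodes another deltex protein, an E3 ubiquitin ligase, and was lowest in tdTomato-only cells. Dtx4 spots read 754 and 590 on the first array and 792 and 397 on the second, EGFP only first. The levels were 9.25 and 9.45, then 9.36 and 8.77, and tdTomato-only cells lay below all other readings. The log2 ratio was −0.58 there, with 6.70% of genes lower still, and it was −1.05 with median centring alone and −0.88 in the authors’ deposited ratios. In double-positive cells the ratio was 0.20, but −0.32 with median centring alone. The EGFP-only readings differed by 0.11.

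Adam17 encodes a metalloprotease that sheds membrane proteins and can make the outer cut in Notch. It was higher in both Cy3 populations, with near-equal ratios. Adam17 spots read 323 and 416 on the first array and 302 and 407 on the second, EGFP only first. The levels were 8.03 and 8.87, then 7.96 and 8.79, so neither EGFP-only reading reached either Cy3 population. The log2 ratios were 0.84 (1.79-fold) and 0.83 (1.78-fold), above 93.6% and 92.2% of genes. They stayed above 0 under all 7 ways of processing, with lowest values of 0.40 and 0.42 under median centring alone. None of these ways separates dye from population, so for Adam17 the 2 cannot be told apart.

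Lfng encodes lunatic fringe, a glycosyltransferase that adds sugars to Notch and shifts its choice of ligand. It was dim, with spot medians of 93.8 and 98.5 on the first array and 107 and 102 on the second. The log2 ratios were 0.02 and −0.19, and the EGFP-only readings were 0.20 apart. The second ratio lay below 0 under every way of processing, from −0.56 to −0.15. No order of the populations is given for ratios of dim spots without replicates. The first ratio turned to −0.04 after quantile normalization and with median centring alone. The RBPJ cores printed above thus belong to a gene whose array values were too near background to rank the populations.

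**Figure D2:**
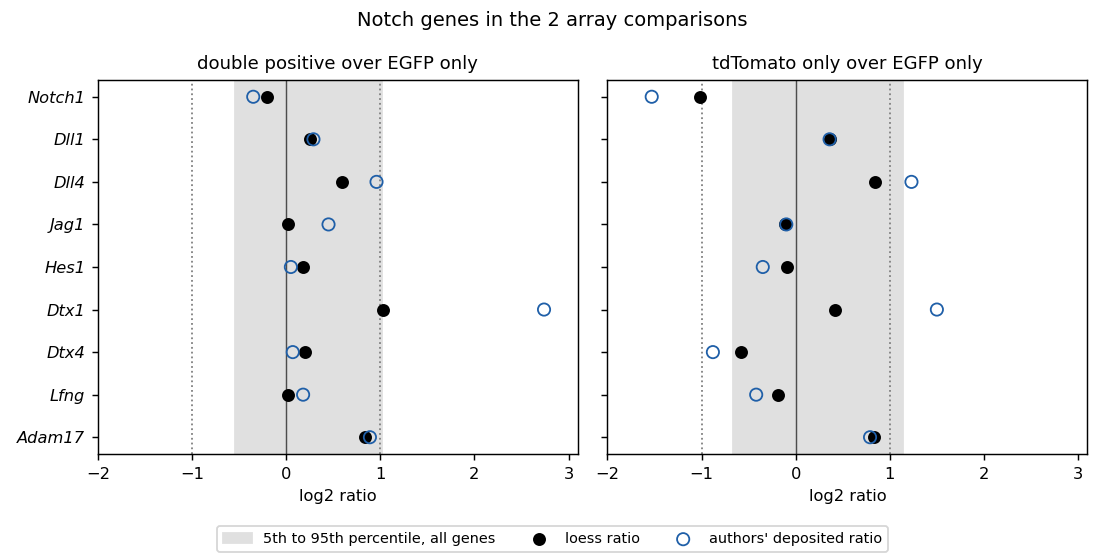
Log2 ratio (x axis) of the 9 measured Notch genes over EGFP-only cells in double-positive (left) and tdTomato-only cells (right), as normalized here (filled) and as deposited by the authors (open), 1 array each. Grey bands hold the 5th to 95th percentile of all genes in the ratios normalized here and dotted lines mark 2-fold; Notch1 at −1.02 lies left of the band on the right, and Dtx1 at 1.03 lies at the edge of the band on the left.

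Counted together, 1 of the 9 measured genes was at least 2-fold higher in double-positive cells (Dtx1) and none was 2-fold lower. Over all 11774 genes, 5.1% were 2-fold higher and 0.34% 2-fold lower. Past 1.5-fold were 3 genes, all higher (Dtx1, Adam17 and Dll4), against 14.8% of all genes in either direction. Of the 9 genes, 8 lay above 0 and 1 below, compared with 48.9% and 51.1% of all genes, and the median log2 ratio was 0.20 against −0.01 over all genes. With median centring alone 4 lay above 0 and 5 below, and 6 of 9 above the median gene of that setting; after quantile normalization 6 lay above 0 and 3 below. In tdTomato-only cells 1 gene was at least 2-fold lower (Notch1) and none was 2-fold higher, while 6.15% of 11381 genes were higher and 1.19% lower. Past 1.5-fold were Dll4 and Adam17, higher, and Notch1, lower, or 3 of 9 genes against 19.1% of all. There 4 genes lay above 0 and 5 below (48.2% and 51.8% of all genes), with a median of −0.10 against −0.01. In the authors’ deposited ratios, Dtx1 was the only one past 2-fold in double-positive cells, where 12.2% of all genes were higher and 3.5% lower by that much. In tdTomato-only cells the deposited ratios put Dll4 and Dtx1 past 2-fold higher and Notch1 past 2-fold lower, beside 12.8% and 6.92% of all genes. In that comparison the set had no common direction, with Dll1 and Dll4 above 0 and Notch1 below.

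The tdTomato-only and double-positive populations were compared by subtracting the first log2 ratio from the second; array and population cannot be told apart here. None of the 9 genes was 2-fold apart, against 1.09% of 11311 genes (0.813% higher and 0.274% lower). Notch1 was lowest at −0.82 (1.76-fold lower in tdTomato-only cells), with 0.575% of genes below it, followed by Dtx4 at −0.79 (1.72-fold) and Dtx1 at −0.61 (1.53-fold). All 3 were past 1.5-fold, as were 4.47% of all genes in either direction. Dll4 (0.25) and Dll1 (0.11) were the only ones above 0. Hes1 had −0.28, Lfng −0.21, Jag1 −0.13 and Adam17 −0.01 (0.02 with median centring alone). In all, 2 of 9 lay above 0 and 7 below, compared with 45.7% and 54.3% of genes, and the median was −0.21 against −0.02. The authors’ deposited ratios put Notch1 (−1.18) and Dtx1 (−1.24) past 2-fold, where 1.76% of all genes were lower and 1.76% higher by that much. Both comparisons with EGFP-only cells share that population, so their likeness across genes is not read as a result.

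**Figure D3:**
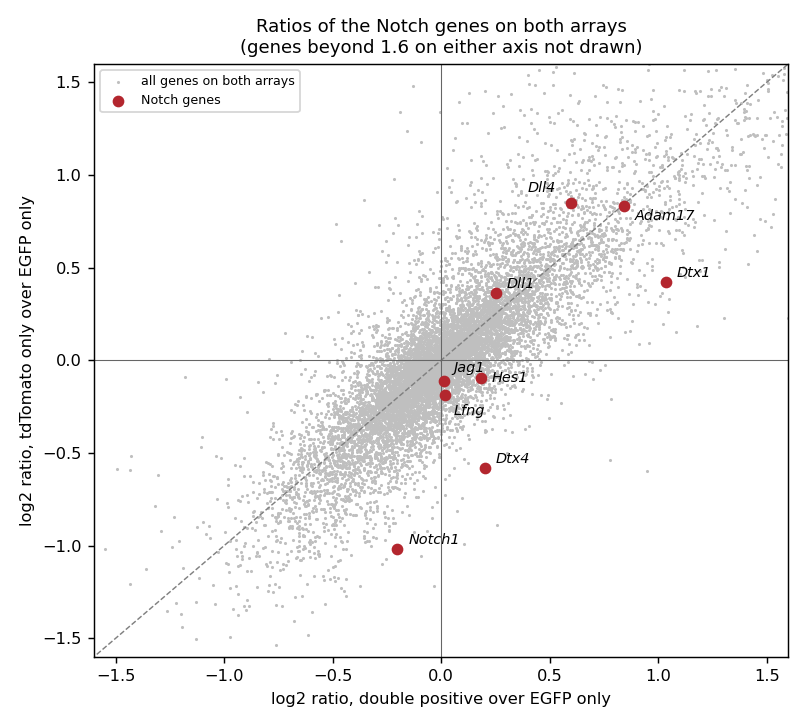
Log2 ratio in double-positive cells (x axis) against that in tdTomato-only cells (y axis), both over EGFP only, for all genes on both arrays (grey) and the 9 measured Notch genes (red). The dashed line marks equal ratios; Notch1, Dtx4 and Dtx1 lie below it by 0.82, 0.79 and 0.61, Dll4 lies 0.25 above it, and Adam17 lies on it.

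**Figure D4:**
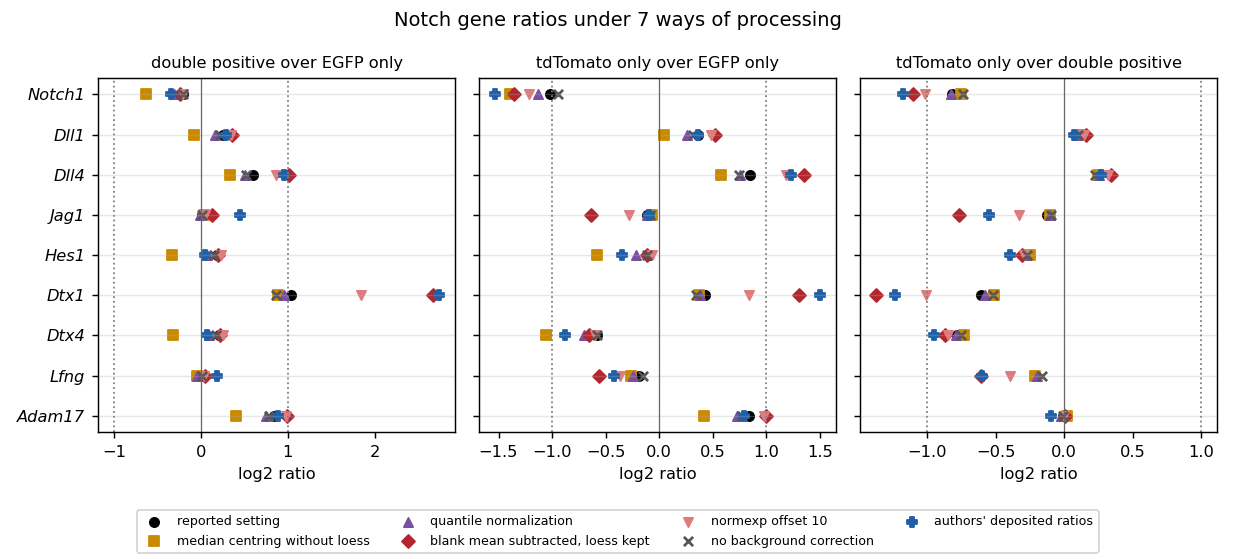
Log2 ratio (x axis of each panel) of the 9 measured Notch genes in the 3 comparisons under 7 ways of processing (symbols); dotted lines mark 2-fold. Notch1 stays left of 0 and Dll4 right of 0 in every panel, while the double-positive ratio of Dtx1 runs from 0.86 to 2.74.

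The genes nearest in both ratios were sought among 11318 genes on both arrays, by distance over the 2 ratios. Notch1 lay nearest to Fads1 (distance 0.077) and Acsm3, and 75 genes were within 0.25 of it in both ratios. Dtx4 was nearest to Slc27a2 (0.087) and Kank1, with 85 such genes, and Dtx1 to Fxyd5 (0.060) and Kif21a, with 84. Those 3 genes thus had fewer such neighbours than the other members. How this count runs over all genes was not examined. The rest lay among many: Dll4 had 426 such genes (nearest Gdpd2 and Kdm6b), Adam17 353 (Kdelr1 and Ngly1), Dll1 1949 (Tbca and Dlgh3) and Hes1 3087 (Ipo4 and Nhp2). Lfng had 4124 (Zfp346 and Iqgap1) and Jag1 4726 (Znfx1 and Rpp14), as genes near 0 on both axes do.

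A further 50 genes of the pathway were listed by role, and 47 had a probe. On the first array 39 were measured in both channels. None was 2-fold higher or lower in double-positive cells, where 5.44% of all genes were. Above 0 lay 27 of them, with a median log2 ratio of 0.09, against 48.9% and −0.01 over all genes. In tdTomato-only cells 38 were measured, 24 lay above 0 and the median was 0.06, against 48.2% and −0.01 over all genes. The counts above 0 were not taken under the other settings. In tdTomato-only cells 1 gene was past 2-fold, compared with 7.34% of all genes. That gene was Neurl3, of the neuralized family of ubiquitin ligases, with levels of 9.60 and 10.26 on the first array and 9.58 and 10.66 on the second, EGFP only first, and log2 ratios of 0.65 and 1.08. Its second ratio was 0.90 after quantile normalization, 0.85 in the authors’ deposited ratios and 0.52 with median centring alone. Between tdTomato-only and double-positive cells none of 38 was 2-fold apart, against 1.09% of all genes, and Nedd4, a ubiquitin ligase gene, was lowest at −0.76.

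Most other receptor and ligand genes were dim, and their ratios hung on the background step. Notch4 had log2 ratios of 0.48 in double-positive and 0.21 in tdTomato-only cells, and 1.38 and 0.77 in the authors’ deposited ratios (1.30 and 0.61 after subtraction of the blank mean). Notch3 had 0.07 and 0.05 (0.75 and 0.69 as deposited by the authors), while Notch2 was not above background in any channel. Jag2 had 0.15 and 0.05 (0.67 and 0.39 as deposited by the authors) and Dlk2, which encodes a delta-like protein without the usual receptor-binding domain, −0.09 and −0.02. Dll3, a delta ligand gene, was above background in the Cy3 channel alone on each array, at least 1.63-fold higher in double-positive and at least 1.44-fold higher in tdTomato-only cells. Its deposited ratio in tdTomato-only cells, from the authors’ table, was 3.15. Of all genes, 8.44% and 6.35% were above background in these channels alone, and 0.738% and 1.23% in the EGFP-only channel alone, which held for none of the wider list. Dlk1 was not above background in any channel.

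Among the targets, Hes5 had the lowest ratios of the wider list. This repressor gene of the Hes family had log2 ratios of −0.56 in double-positive and −0.67 in tdTomato-only cells, below 0 under all 7 ways and −1.16 in the deposited tdTomato-only ratio. Hes7 and Hey1 were dim, and their ratios hung on the background step. Hes7 had 0.09 and 0.07 (0.96 and 0.89 as deposited by the authors). Hey1 had −0.18 and −0.08 (−0.64 and 0 as deposited by the authors). Heyl was above background in double-positive cells alone (at least 1.14-fold higher), and Hey2 was not above background in any channel. In the nuclear complex Snw1, which encodes a transcription and splicing cofactor, was highest with 0.93 and 0.63, and the second value was −0.03 with median centring alone, still above the median gene of that setting. Rbpj itself had −0.11 and −0.34, and Maml1, a coactivator gene, −0.13 and 0.23 (−0.22 for the latter with median centring alone).

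Of 8 measured genes of receptor cleavage, 7 lay above 0 in double-positive and 5 in tdTomato-only cells (48.9% and 48.2% of all genes). With median centring alone 4 and 2 lay above 0, but 6 and 5 above the median gene of that setting. As normalized here, none was past 1.5-fold. In the authors’ deposited ratios Aph1b, a gamma-secretase gene with dim spots, had 1.45 and 1.21 (0.23 and 0.14 as normalized here). Of gamma-secretase, Aph1a had −0.27 and −0.26 and Psenen 0.33 and 0.26, and Psenen turned to −0.02 and −0.15 in the deposited ratios and to −0.44 and −0.43 with median centring alone. Adam10, which encodes the main Notch sheddase, had 0.36 and 0.18, with −0.16 and −0.30 under median centring alone, the former above and the latter below the median gene of that setting. Of the glycosylation genes, the fringe gene Rfng was highest with 0.39 and 0.54. Pofut1 had −0.15 and −0.22, and Poglut1 had 0.09 (−0.32 with median centring alone, −0.01 after quantile normalization) and −0.29. These enzymes add fucose and glucose to Notch.

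Regulators of ligand uptake and receptor turnover were mixed. Mib1, a ubiquitin ligase gene needed for ligand endocytosis, had 0.10 (−0.06 with median centring alone, above its median gene) and −0.18, and Neurl1b had −0.16 and −0.13. Mib2 was dim, with 0.17 in double-positive cells (1.67 as deposited by the authors). On the second array Mib2 was above background in tdTomato-only cells alone, with a deposited ratio of 1.78. Sel1l, of endoplasmic reticulum protein degradation, had 0.75 and 0.51 (1.32 and 0.94 as deposited by the authors). Dtx2, another deltex gene, had −0.44 and −0.28, below 0 under all 7 ways, where Dtx1 was above 0 in both. Nedd4 had 0.39 (−0.31 with median centring alone) and −0.37. Dtx3 was above background in the Cy3 channel alone on each array, with bounds of 1.05-fold.

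**Figure D5:**
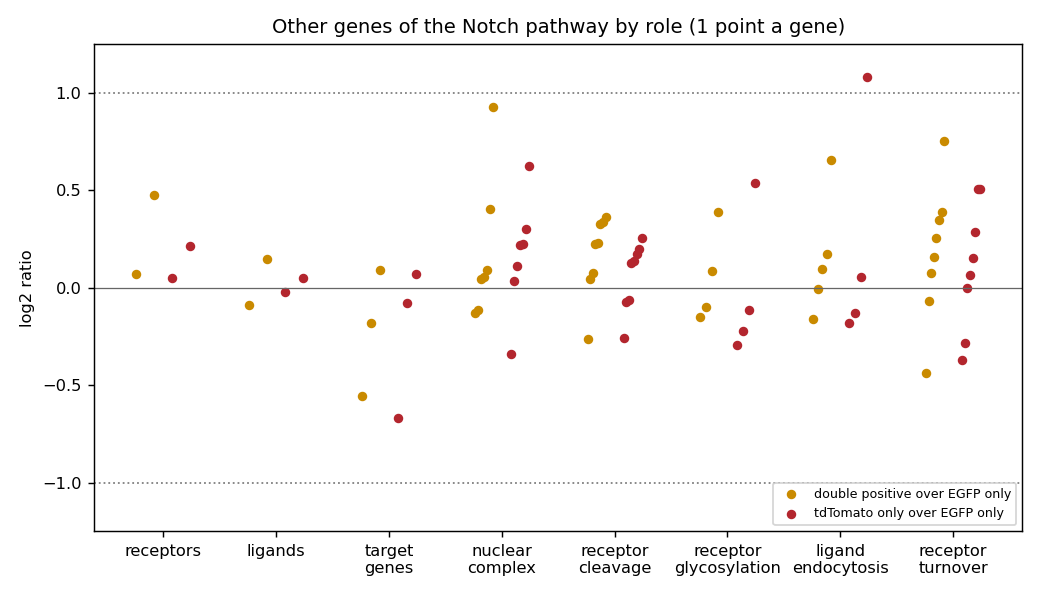
Log2 ratio (y axis) of the measured genes of the wider Notch list by role (x axis) in double-positive (ochre) and tdTomato-only cells (red) over EGFP only; each point is 1 gene on 1 array. Dotted lines mark 2-fold; Neurl3 at 1.08 is the only point past them, and Hes5 is the lowest at −0.67.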

How the data were processed

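Total RNA of sorted cells was amplified, dye-labelled with Cy3 or Cy5, then hybridised on Toray arrays, per the labels’ protocols. The authors deposited spot median intensity in red and green for each array, per the file headers, and normalized log2 ratios of Cy3 over Cy5 (EGFP only), per the labels. Aligning these ratios with the scanner values showed their making: the log2 ratio of both channels, each less a blank mean trimmed by 5% at either end, plus a constant, matched them within 0.02 for 99.99% of probes. Their column medians were 0.

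Intensities of 23474 probes were corrected by normexp with an offset of 50, without local background, and loess-normalized within the array with limma 3.58.1 in R 4.3.3, controls and spots with a quality mark weighted 0. Levels are after Aquantile normalization. Above background means over the mean plus 2 SD of 2736 blank spots. A gene above background in 1 channel alone was given a bound against the higher of its own dim level and the lowest level above background. Median probe intensities were 98.3, 104, 98.2 and 108 in the 4 channels; the number of arrays limits the precision. Symbols were updated through RefSeq (GRCm38.p6) for 3947 probes (12623 were current, 59 ambiguous and 3 unmatched), and 6842 probes had no name here. No array coordinates are printed, since no source used here gives the build of the array design. Probes of a gene were averaged.

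The members and lists were chosen with earlier results of these data known. Named genes were all members, genes of the wider list past 2-fold or with a bound of at least 2-fold, the highest and lowest of each role in the first 2 comparisons, and the 2 genes nearest each member; other genes named were chosen after their values were seen. The planned Hes1 promoter and protein comparisons were not made, and that of Nrarp is not shown because it has no values. E-boxes were searched after the data were seen. Steps were tested on simulated arrays.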

Additional observations from a re-analysis of the deposited data

How the results depend on the processing

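With 1 array a comparison, leaving out a replicate was not possible. No paired analysis was possible because each group has 1 sample. The filters on dim probes and the brightest probe leave the ratio of a single-probe gene as it is. Under the other alternatives, 99 of 198 values of members, Neurl3 and Lgr5 moved by more than the technical SD. The few ratios past 2-fold, those of Dtx1, Notch1, Neurl3 and Lgr5, kept their sign. Smaller ratios changed sign, namely those of Dll1, Jag1, Hes1, Dtx4, Lfng and Lgr5 in double-positive cells. That of Adam17 between tdTomato-only and double-positive cells did so as well.

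The median of the 9 members in double-positive cells (0.20) was −0.043 with median centring alone, 0.089 after quantile normalization and 0.29 in the deposited ratios. In tdTomato-only cells (−0.10) it was 0.13 with the background limit at 3 SD, which dropped Jag1. Between tdTomato-only and double-positive cells (−0.21) it was −0.61 with the blank mean subtracted, −0.33 with an offset of 10 and −0.55 in the deposited ratios.

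Members past 2-fold in double-positive cells numbered 1, but 0 with median centring alone, quantile normalization or no background correction, 2 with the blank mean subtracted and 3 at a threshold of 1.5-fold. Of all 11774 genes, 1173 were 2-fold higher and 402 lower with the blank mean subtracted, and 902 and 101 with an offset of 10. The deposited ratios had 12.2% higher and 3.5% lower, and 14.8% of genes were past 1.5-fold. In tdTomato-only cells they numbered 1, but 2 with median centring alone or an offset of 10, 3 with the blank mean subtracted, in the deposited ratios or at 1.5-fold, and 0 with no background correction. Of all 11381 genes, 1225 were 2-fold higher and 593 lower with the blank mean subtracted, and 1008 and 263 with an offset of 10. Median centring alone gave 407 and 850. The deposited ratios had 12.8% higher and 6.92% lower, and 19.1% of genes were past 1.5-fold. Between these populations there were 0, but 2 with the blank mean subtracted, an offset of 10 or the deposited ratios, and 3 at 1.5-fold. Of all 11311 genes, 206 were 2-fold higher and 163 lower with the blank mean subtracted, and 130 and 65 with an offset of 10. The deposited ratios had 1.76% in each direction, and 4.47% of genes were past 1.5-fold.

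Of the wider list, 0 were past 2-fold in double-positive cells, but 4 with the blank mean subtracted or in the deposited ratios, 2 with an offset of 10 and 3 at 1.5-fold. In tdTomato-only cells 1 was, but 0 with median centring alone or quantile normalization, 2 with the blank mean subtracted, 4 in the deposited ratios and 3 at 1.5-fold. Between the populations 1 was past 1.5-fold. These counts are to be read beside those over all genes given above for the members.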
